A study of Mus musculus with 8 samples.

Results

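Radial spoke proteins were examined in RNA from mouse testis, through 9 genes chosen by symbol: Rsph1, Rsph3a, Rsph3b, Rsph4a, Rsph6a, Rsph9, Rsph10b, Rsph14 and Dnajb13. Of these, 8 had a row among the 19906 genes of the deposited table, and 7 passed the filter on low counts with 15787 genes in all. Rsph10b was not analysed here, and Rsph4a did not pass the filter. The libraries were made from testes of mice aged 2 months, 4 labelled Tmem232-/- and 4 labelled Tmem232+/+, with 1 library per mouse. The deletion was made with Cas9 and paired guides in fertilized C57BL/6 oocytes and removes an inner fragment of Tmem232, a gene of a transmembrane protein, in every cell. The strain of the Tmem232+/+ mice and whether they were littermates are not given in the sources used here. The comparison addresses how gene expression in the testis differs when Tmem232 is knocked out. Total counts lay between 15428421 and 16350871 per library. Tmem232 itself had 122 to 148 counts per 1000000 (CPM, scaled by the TMM method) in the libraries labelled Tmem232-/- and 106 to 111 in those labelled Tmem232+/+. Its count was thus higher under the knockout label (log2 fold change 0.27, adjusted p = 0.034 from edgeR). That call was lost in 4 of the 8 fits that left out a library (adjusted p from 0.086 to 0.089 in edgeR). The count covers the whole gene, with exons outside the deleted fragment, so it can neither verify nor contradict the label. Within these data, every direction given here therefore rests on the labels alone. The authors report that TMEM232 protein was absent from Tmem232-/- testes, which these libraries do not measure. Where 4 values of a label are listed, they are in the order of replicates 1 to 4.

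The radial spoke is a T-shaped complex that stands on an outer doublet microtubule of the axoneme and reaches with its head towards the central pair of microtubules. It passes mechanical signals between the central pair and the dynein arms, which shapes the beat of sperm flagella and of motile cilia. Rsph1, Rsph4a, Rsph6a, Rsph9 and Rsph10b encode proteins of the spoke head, the Rsph3 genes encode a stalk protein that can anchor protein kinase A, and Dnajb13 encodes a J-domain protein of the spoke. In the testis these transcripts belong mainly to germ cells that are preparing or building a flagellum. In whole testis RNA, fewer cells of a type and less RNA per cell cannot be told apart.

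Levels of different genes were compared per transcript length, as the authors' FPKM (fragments per kilobase of transcript and per 1000000 fragments). Rsph1, a head protein with MORN repeats, stood first with 1359 to 1941 FPKM in the libraries labelled Tmem232+/+ and 1175 to 1465 FPKM in those labelled Tmem232-/-. By FPKM it ranked between 6 and 14 among all 19906 genes of a library. It made up 58.3% to 66.5% of the summed FPKM of the 8 measured radial spoke genes, and 0.115% to 0.193% of all counts of a library. Rsph3a followed with 316 to 386 FPKM over the 8 libraries, and Rsph3b with 168 to 229 FPKM. Dnajb13 had 87.4 to 170 FPKM, Rsph9 77.3 to 114 FPKM and Rsph6a 88.1 to 109 FPKM over the 8 libraries. In the libraries labelled Tmem232-/-, Dnajb13 (140 to 170 FPKM) lay above both others, while under Tmem232+/+ it overlapped with them (87.4 to 139 FPKM), and Rsph9 and Rsph6a overlapped with each other under each label. Rsph14 was lower, with 7.74 to 12.6 FPKM. Rsph4a was lowest, with 0.14 to 0.38 FPKM, and its paralog Rsph6a was 447 to 780 times higher per length within 7 of the libraries and 242 times in Tmem232+/+ replicate 2. The steps from Rsph1 to Rsph3a, from Rsph3a to Rsph3b, from Rsph6a and Rsph9 to Rsph14, and from Rsph14 to Rsph4a were each larger than the range of either gene over the libraries, while the highest values of Dnajb13 reached the lowest of Rsph3b.

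**Figure D1:**
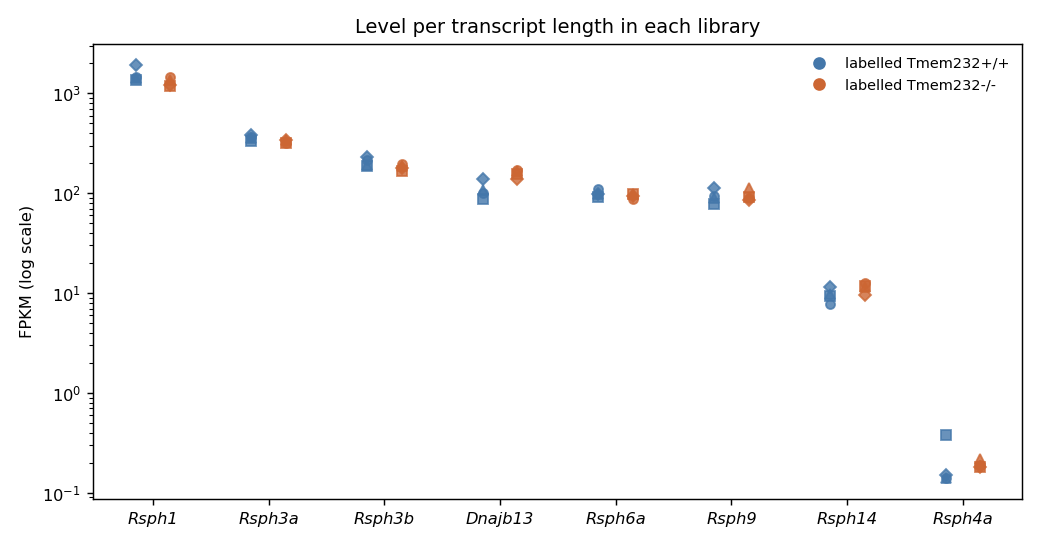
FPKM on a log axis for the 8 measured radial spoke genes, with 1 point per library, blue for the 4 libraries labelled Tmem232+/+ and orange for the 4 labelled Tmem232-/-, and 1 marker shape per replicate number. Levels fall from Rsph1 at 1175 FPKM or more to Rsph4a at 0.38 FPKM or less, and Dnajb13 is the only gene whose groups do not overlap, by a narrow margin (139.57 against 139.04 FPKM in the replicates numbered 3).

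Between the labels, 1 of the 7 tested radial spoke genes was called higher in the libraries labelled Tmem232-/- at an adjusted p under 0.05 (Dnajb13), none was called lower and 6 were not called, by the quasi-likelihood test of edgeR (Benjamini-Hochberg adjustment). Over all 15787 tested genes, 10.3% were called higher and 1.46% lower by the same rule. The latter share rests on 230 genes, a count that lay between 37 and 356 with 1 library left out. That count was 28 with a replicate block and 458 on the FPKM scale with 1 added. Of the radial spoke genes not called, none had an unadjusted p under 0.05 in edgeR, and DESeq2 and limma called none of them either. The median log2 fold change of the 7 genes was -0.05, and that of all tested genes was -0.05. The former was 0.0096 without Tmem232+/+ replicate 1 and -0.10 without Tmem232+/+ replicate 2. The groups did not overlap in CPM for 1 of the 7 genes, again Dnajb13, where 11.8% of all tested genes lay wholly above and 6.88% wholly below. At a fold change of 2 or more with an unadjusted p under 0.05, no radial spoke gene was called, against 5.48% of all tested genes higher and 0.114% lower. In these counts the radial spoke genes were close to the background.

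Among the head proteins, Rsph1 (Entrez ID 22092) had 1498, 1177, 1233 and 1348 CPM in the 4 replicates labelled Tmem232-/-. The Tmem232+/+ replicates had 1483, 1305, 1884 and 1387 CPM. Mean levels were 1314 ± 142 (SD, n = 4) and 1515 ± 257 (SD, n = 4), and the groups overlapped, with replicate 3 labelled Tmem232+/+ highest. The log2 fold change (with its standard error, SE) of Rsph1 was -0.20 (SE 0.118, adjusted p = 0.31), and without that replicate it was -0.05. The most abundant radial spoke gene therefore had a lower mean under the knockout label by an amount that 1 library largely set.

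Rsph9 (Entrez ID 75564), the small head protein, had 72.0, 71.6, 66.7 and 87.2 CPM in the 4 replicates labelled Tmem232-/-. Replicates 1 to 4 labelled Tmem232+/+ had 73.8, 57.8, 86.6 and 68.8 CPM. The groups overlapped over most of their range, and the log2 fold change was 0.05 (SE 0.121, adjusted p = 0.82). Its sign turned on leaving out replicate 4 labelled Tmem232-/- (-0.02) or, among the Tmem232+/+ libraries, replicate 2 (-0.04).

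Rsph6a and Rsph4a are paralogs, of which Rsph4a is the head protein known from motile cilia of the airways and Rsph6a the one known from sperm. Rsph6a (Entrez ID 83434) had 176, 196, 183 and 184 CPM in the 4 replicates labelled Tmem232-/- and 219, 174, 183 and 191 CPM in those labelled Tmem232+/+. Its groups overlapped, with a log2 fold change of -0.05 (SE 0.079, adjusted p = 0.70) that became 0.06 without replicate 1 labelled Tmem232+/+. Rsph4a (Entrez ID 212892) had 10, 10, 10 and 12 counts in replicates 1 to 4 labelled Tmem232-/- and 8, 21, 8 and 8 counts in those labelled Tmem232+/+. It was thus detected in all 8 libraries at a level close to the limit of detection, and replicate 2 labelled Tmem232+/+ stood apart.

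Summed over the libraries of a label, Rsph4a had 42 counts under Tmem232-/- and 45 under Tmem232+/+, a ratio of 0.957 with a 95% interval of 0.613 to 1.49 that covers counting error alone. Without a filter on low counts, its log2 fold change was -0.02 (SE 0.367, adjusted p = 0.99 from edgeR). Leaving out the replicate with 21 counts, the log2 CPM of Rsph4a differed by 0.34 and the groups no longer overlapped (two-sided p = 0.029 in an exact permutation test, which 4 against 3 cannot go below). That difference is one of 10 to 12 counts against 8, which counting error does not resolve. The change of Rsph6a minus that of Rsph4a was -0.10 on the log2 scale over all libraries (exact permutation test over 70 arrangements, two-sided p = 0.86). It was -0.43 without the same replicate (exact permutation test, two-sided p = 0.029), so the outcome of the test of the paralogs depends on this library.

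**Figure D2:**
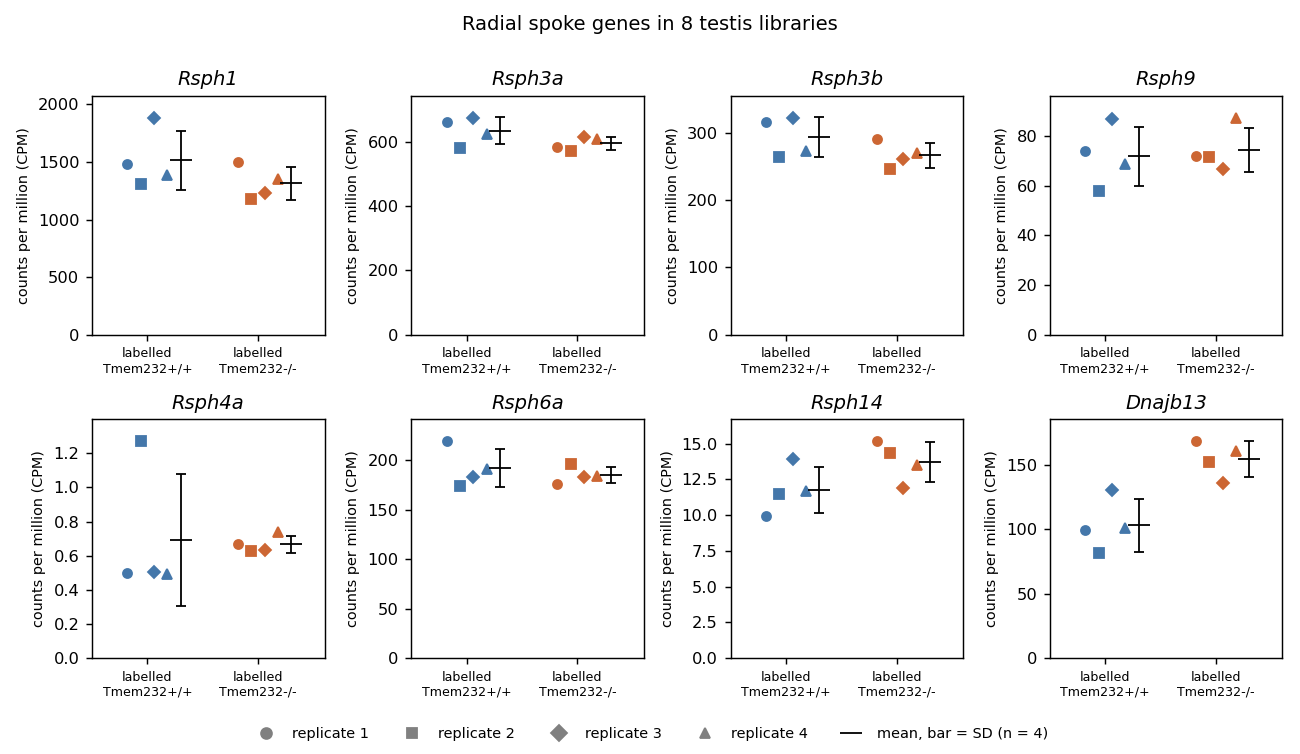
CPM (linear axes from 0) of the 8 measured radial spoke genes, 1 panel each, with 1 point per library by label, the marker shape giving the replicate number, and the mean with its SD (n = 4) beside the points. The groups overlap in 7 panels, Dnajb13 is the exception with 136 to 169 CPM against 81.4 to 131 CPM, and 1 library labelled Tmem232+/+ lies far above the others for Rsph4a.

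The Rsph3 stalk protein is encoded in the mouse by a pair of near-identical genes on chromosome 17, Rsph3a at chr17:7945614-7979824 on the plus strand and Rsph3b at chr17:6904413-6948682 on the minus strand (GENCODE vM21, GRCm38). Each coding sequence has 8 exons, and exons 3 to 7 are the same in both copies base for base, while the coding part of exon 8 has 1 mismatch in 224 bases. Of the 50-base windows of the longest coding Rsph3a transcript, 74.0% also occur in the Rsph3b transcript, and 60.6% of its 100-base windows do. No such window is shared between Rsph6a and Rsph4a. Exon 7, at chr17:7978718-7978804 in Rsph3a and chr17:6905433-6905519 in Rsph3b, is shown as a stretch in which a read cannot be assigned to either copy.
Rsph3a and Rsph3b, exon 7: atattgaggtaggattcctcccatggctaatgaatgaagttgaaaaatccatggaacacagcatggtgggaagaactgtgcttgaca
The copies part mainly in coding exon 1, which has 12 mismatches and 54 bases that only Rsph3b has, and exon 2 is 3 bases longer in Rsph3b. A stretch with the extra bases and 5 of the mismatches lies at chr17:7945990-7946079 in Rsph3a and at chr17:6948202-6948345 in Rsph3b. Capitals mark the bases that differ from the other copy or that it lacks within this stretch.
Rsph3a, exon 1: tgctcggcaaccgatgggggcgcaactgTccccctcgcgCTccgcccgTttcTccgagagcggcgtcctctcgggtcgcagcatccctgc
Rsph3b, exon 1: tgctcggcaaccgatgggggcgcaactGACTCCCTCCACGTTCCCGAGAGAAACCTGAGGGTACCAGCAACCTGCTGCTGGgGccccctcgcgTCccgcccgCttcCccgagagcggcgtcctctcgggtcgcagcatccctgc

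The counts bear the mark of this likeness. Neither gene had a whole count in any library, but their sum was whole within 0.01 in 8 of 8 libraries, so reads had been divided between the copies upstream. The sum is the value that does not depend on that division. It was 876, 818, 876 and 879 CPM in the 4 replicates labelled Tmem232-/- and 976, 845, 997 and 897 CPM in those labelled Tmem232+/+. The groups overlapped, with means of 862 ± 29.3 (SD, n = 4) and 929 ± 70.6 (SD, n = 4) and a log2 fold change of -0.11 (SE 0.071, adjusted p = 0.38 from edgeR). It was -0.04 when Tmem232+/+ replicate 1 or 3, the highest libraries, was left out.

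Taken singly, Rsph3a (Entrez ID 66832) had 585, 572, 614 and 609 CPM in the 4 replicates labelled Tmem232-/- and 660, 581, 675 and 624 CPM in those labelled Tmem232+/+. Its log2 fold change was -0.09 (SE 0.068, adjusted p = 0.42), or -0.04 and -0.03 without Tmem232+/+ replicate 1 or 3. Rsph3b (Entrez ID 100037282) had 290, 246, 262 and 270 CPM against 316, 264, 322 and 273 CPM, with a log2 fold change of -0.14 (SE 0.085, adjusted p = 0.35), or -0.06 with one or the other of these libraries left out. For both copies the libraries of the labels interleaved. The share of the summed counts given to Rsph3b was 31.0% ± 1.53 (SD, n = 4) under Tmem232-/- and 31.6% ± 0.942 (SD, n = 4) under Tmem232+/+. The difference between the changes of the copies was 0.04 on the log2 scale (exact permutation test over 70 arrangements, two-sided p = 0.49), and lay between 0.02 and 0.09 with 1 library left out, at its highest without Tmem232-/- replicate 1. These shares come from the authors' estimate of which copy a read belongs to and are uncertain for that reason.

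Rsph14 (Entrez ID 71236), an armadillo-repeat protein, had 15.2, 14.3, 11.9 and 13.5 CPM in the 4 replicates labelled Tmem232-/-. Replicates 1 to 4 labelled Tmem232+/+ had 9.97, 11.4, 13.9 and 11.7 CPM. Of the libraries labelled Tmem232-/-, 2 lay above the highest of the others, replicate 3 labelled Tmem232+/+. The log2 fold change was 0.22 (SE 0.121, adjusted p = 0.28), and without that replicate it was 0.35, still not called (adjusted p = 0.085).

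Dnajb13 (Entrez ID 69387), the J-domain protein, was the exception among the 7 tested radial spoke proteins. It had 169, 152, 136 and 161 CPM in the 4 replicates labelled Tmem232-/- and 99.4, 81.4, 131 and 101 CPM in those labelled Tmem232+/+. Each library of the knockout label exceeded each of the wild type label, and the nearest pair were the replicates numbered 3 of the labels. Mean levels were 155 ± 13.9 (SD, n = 4) and 103 ± 20.6 (SD, n = 4). The log2 fold change was 0.58 (SE 0.127, adjusted p = 0.0098 from edgeR), and the exact permutation test of CPM gave a two-sided p of 0.029, the smallest that 4 against 4 allow. It was called in all 8 fits that each left out a library, with log2 fold changes from 0.48 to 0.75. Over all 18 alternative settings, the adjusted p ranged from 0.00016 to 0.036. The authors report the opposite direction for DNAJB13 protein, which was lower in Tmem232-/- sperm by mass spectrometry. That is protein of sperm, while the values here are RNA of whole testis. By electron microscopy the authors also saw radial spokes on the doublets that remained in Tmem232-/- sperm.

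The rise of Dnajb13 was also seen within each library against the other radial spoke genes, a comparison chosen after the values were seen and given without a test. For every 100 CPM of Rsph1, Dnajb13 had 11.3, 12.9, 11.1 and 11.96 CPM in the 4 replicates labelled Tmem232-/- and 6.70, 6.23, 6.96 and 7.29 CPM in those labelled Tmem232+/+. This proportion varied less among the libraries labelled Tmem232+/+ than the CPM of either gene, and replicate 3 was highest for both. Per 100 CPM of Rsph9, the values were 185 to 234 and 135 to 151 CPM. Per 100 CPM of Rsph6a they were 74.6 to 95.8 and 45.3 to 71.6, and per 100 CPM of Rsph3b they were 52.1 to 61.99 and 30.9 to 40.7. The groups did not overlap for any of the 6 tested radial spoke genes used as the base. Since Dnajb13 itself did not overlap, these ratios are no independent evidence of its rise.

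**Figure D3:**
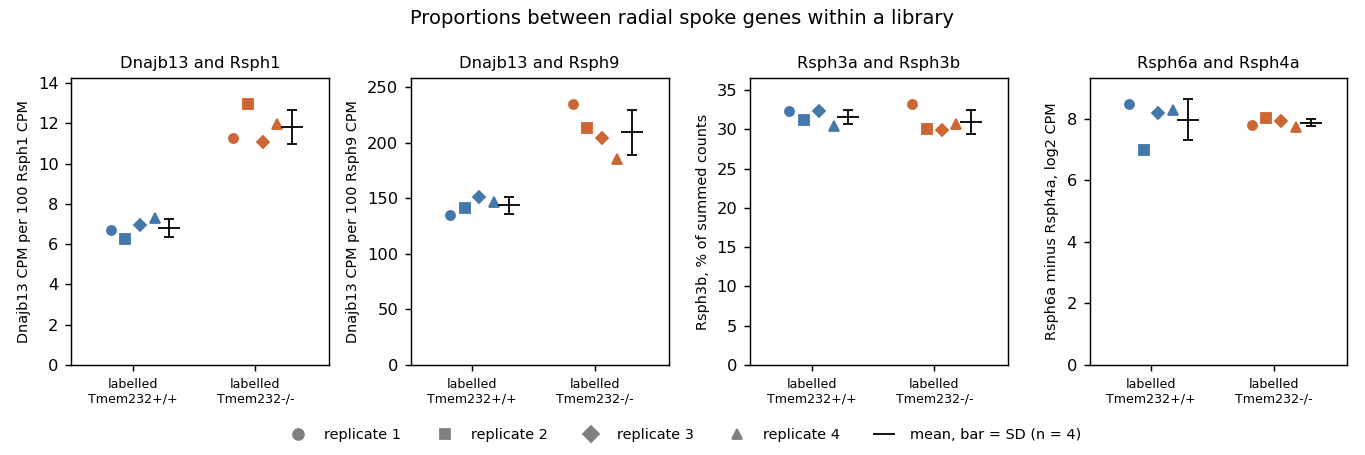
Proportions between radial spoke genes within each library, by label: Dnajb13 per 100 CPM of Rsph1 and of Rsph9, the percentage of the summed Rsph3a and Rsph3b counts given to Rsph3b, and the log2 CPM of Rsph6a minus that of Rsph4a, with the mean and SD (n = 4) beside the points. The panels with Dnajb13 separate the labels (11.1 to 12.9 against 6.23 to 7.29 for Rsph1), and the panels of the paralogs do not.

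Beyond the named radial spoke proteins, a list of 11 other genes whose proteins sit in or at the base of the spoke was examined, and all 11 passed the filter. Of these, 4 were called higher in the libraries labelled Tmem232-/- (Ropn1, Dydc2, Iqub and Maats1), none was called lower and 7 were not called, with a median log2 fold change of 0.26, where 10.3% of all tested genes were called higher and 1.46% lower. The count was 2 without replicate 2 labelled Tmem232-/- and lay between 3 and 5 without any other library. The lists were chosen with earlier results of these data known.

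Ropn1 and Ropn1l encode ropporins, which bind A-kinase anchoring proteins in the sperm tail. Ropn1 had 101, 94.7, 79.9 and 89.5 CPM in the 4 replicates labelled Tmem232-/- and 35.9, 26.5, 40.3 and 37.1 CPM in those labelled Tmem232+/+. Its groups were far apart, with a log2 fold change of 1.39 (SE 0.122, adjusted p = 3.2e-05). Ropn1l had 600 to 837 CPM against 537 to 863 CPM and a log2 fold change of 0.07 (SE 0.143, adjusted p = 0.80). Its libraries interleaved, and its sign turned without replicate 1 labelled Tmem232-/- (-0.02) or replicate 2 labelled Tmem232+/+ (-0.03).

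Dydc1 and Dydc2 carry a DPY30 motif. Dydc2 was low, with 3.26, 2.76, 1.58 and 3.93 CPM in the 4 replicates labelled Tmem232-/- and 1.25, 0.908, 1.33 and 1.23 CPM in those labelled Tmem232+/+, and its groups did not overlap. The log2 fold change was 1.29 (SE 0.278, adjusted p = 0.0093), and it remained called whichever library was left out. Dydc1 had 44.7 to 55.2 CPM against 45.8 to 66.4 CPM and a log2 fold change of -0.04 (adjusted p = 0.86), which turned to 0.01 without Tmem232-/- replicate 3 and 0.13 without Tmem232+/+ replicate 3. Of each pair of related genes, the one with fewer CPM was called and the other was not, a description made after the values were seen.

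Iqub, an IQ-motif protein of the spoke stalk, had 213, 235, 222 and 168 CPM in the 4 replicates labelled Tmem232-/- and 160, 155, 127 and 161 CPM in those labelled Tmem232+/+. It was higher in each library of the knockout label, with a log2 fold change of 0.48 (SE 0.111, adjusted p = 0.015), and narrowly lost its call without replicate 2 labelled Tmem232-/- (adjusted p = 0.054 from edgeR). Maats1 (Cfap91), Cfap61 and Wdr66 (Cfap251) encode a calmodulin-associated complex at the spoke base. Maats1 had 69.3 to 84.9 CPM against 63.6 to 66.4 CPM, a log2 fold change of 0.26 (SE 0.070, adjusted p = 0.035). Its call did not last without Tmem232-/- replicate 1, 2 or 3 or without Tmem232+/+ replicate 2 or 4, with adjusted p from 0.080 to 0.0999 in edgeR, nor on the FPKM scale in limma (adjusted p = 0.058 with 1 added and 0.081 with 0.1 added). Cfap61 had 7.5 to 13.8 CPM against 3.29 to 8.97 CPM, and its log2 fold change of 0.57 (SE 0.293, adjusted p = 0.26) was not called and was 0.37 without Tmem232+/+ replicate 3. Wdr66 had 149 to 169 CPM against 160 to 182 CPM and a log2 fold change of -0.05 (adjusted p = 0.71), which turned to 0.0072 without Tmem232-/- replicate 4 and 0.03 without Tmem232+/+ replicate 1. Of the subunits of this complex, 1 was thus called, and not the one with the largest fold change.

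Nme5, a nucleoside diphosphate kinase-like spoke protein, had 104 to 122 CPM against 83.4 to 109 CPM and a log2 fold change of 0.26 (SE 0.088, adjusted p = 0.081). It was called without replicate 3 labelled Tmem232+/+, the highest of its group, with a log2 fold change of 0.37 (adjusted p = 0.0044 from edgeR). Cfap206, which docks a spoke to the doublet, had 653 to 835 CPM against 574 to 739 CPM and a log2 fold change of 0.24 (adjusted p = 0.15). It was called without replicate 4 labelled Tmem232-/-, the lowest of its group (0.33, adjusted p = 0.027 from edgeR). Lrrc23, a spoke head protein, had 168 to 192 CPM against 165 to 199 CPM and a log2 fold change of -0.04 (adjusted p = 0.78), which turned to 0.05 and 0.0062 without Tmem232+/+ replicate 1 or 3. With all 8 libraries, Nme5 was also called by DESeq2 (adjusted p = 0.038) and, narrowly, by edgeR without the filter on low counts (adjusted p = 0.049).

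Neighbouring parts of the axoneme were set beside the spoke. Of 13 genes of the nexin-dynein regulatory complex and of the ruler that sets the spacing of spokes, 2 were called higher and none lower, near the 10.3% of all tested genes called higher. Their median log2 fold change was 0.05, and it lay between 0.02 and 0.13 with 1 library left out and at 0.0021 on the FPKM scale. Fbxl13 was highest, with 84.8 to 111 CPM against 42.8 to 51.3 CPM and a log2 fold change of 1.07 (adjusted p = 3.3e-05), and Ccdc40, which builds the ruler with Ccdc39, was lowest at -0.11 (adjusted p = 0.31, and -0.14 to -0.04 with 1 library left out). The other call was Iqca (0.46, adjusted p = 0.022), and 1 of the 2 calls was lost without Tmem232-/- replicate 1 or 2 or without Tmem232+/+ replicate 2. Of 13 central pair genes, which the spoke heads face, 2 were called higher and none lower, again near the 10.3% of all tested genes. Their median was 0.16, or 0.08 without Tmem232+/+ replicate 3, 0.27 without Tmem232-/- replicate 4 and 0.078 on the FPKM scale with 1 added. Spag6 was highest (0.86, adjusted p = 0.00055) and Spef1 lowest (-0.14, adjusted p = 0.28, and -0.19 to -0.07 with 1 library left out), and Cfap221 was the other call (0.25, adjusted p = 0.021). The central pair count was 1 without Tmem232-/- replicate 1 or 2 or without Tmem232+/+ replicate 2 or 4, 3 without Tmem232+/+ replicate 3 and 5 without Tmem232-/- replicate 4. The values of Iqca and Cfap221 were singled out after they were seen.

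**Figure D4:**
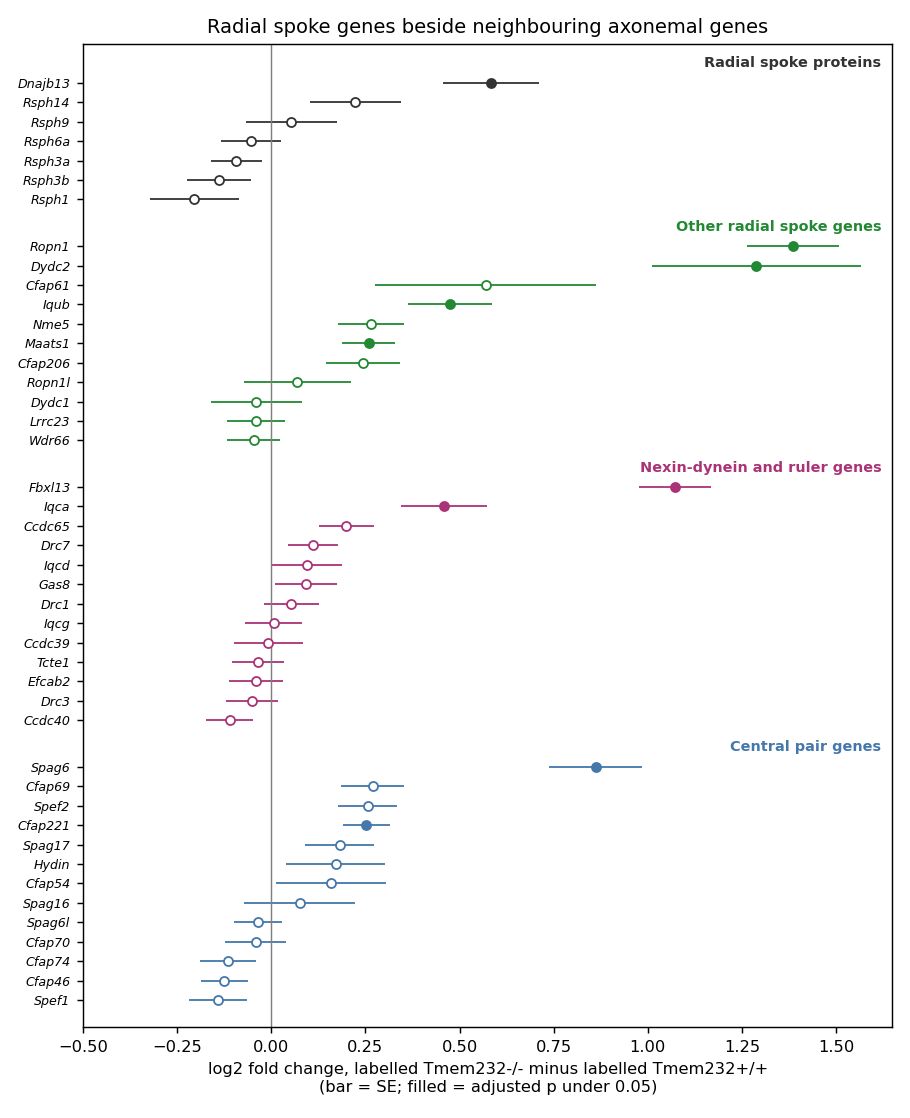
Log2 fold change, labelled Tmem232-/- minus labelled Tmem232+/+, with its SE for 7 radial spoke proteins, 11 other radial spoke genes, 13 nexin-dynein and ruler genes and 13 central pair genes, with filled points for an adjusted p under 0.05 in edgeR. Filled points lie only to the right of 0, from 0.25 for Cfap221 to 1.39 for Ropn1, and Dnajb13 is the only filled point among the radial spoke proteins.

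The mean centred log2 CPM of the 7 tested genes was lowest in replicate 2 labelled Tmem232+/+ (-0.21) and highest in replicate 3 labelled Tmem232+/+ (0.17), and lay between -0.06 and 0.10 in the libraries labelled Tmem232-/-. The widest spread of this mean was thus within a label. Not every gene followed it, as Rsph6a was highest in replicate 1 labelled Tmem232+/+ and Rsph14 was lowest there. The genes nearest to this mean, by root mean square distance of centred log2 CPM over the 8 libraries, were Nfkbib (0.023), Amn1 (0.027), 4930544G11Rik (0.030), March11 (0.030) and Slc30a3 (0.033), among 10381 genes of at least 10 CPM. A mean over genes is damped compared with a single gene, so these distances are a description only. None of these 5 genes was called, with log2 fold changes from 0.00 to 0.08.

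By position, Rsph1, Rsph3a, Rsph3b and Rsph9 lie on chromosome 17, as does Tmem232, at distances of 19.1 to 58.3 Mb from it. Rsph1 lies at chr17:31255019-31277383 and Rsph9 at chr17:46122035-46144216, both on the minus strand. Rsph4a lies at chr10:33905111-33916021 on the plus strand and Rsph14 at chr10:74957477-75032586 on the minus strand. Rsph6a lies at chr7:19054690-19074447 on the plus strand and Dnajb13 at chr7:100501716-100514960 on the minus strand. Dnajb13 shares 305 of its 2732 exon bases with Ucp2 on the opposite strand in GENCODE, and none in RefSeq, where the genes are 3381 bases apart. Ucp2, a mitochondrial carrier, had 89.9 to 121 CPM under Tmem232-/- and 103 to 125 CPM under Tmem232+/+, with a log2 fold change of -0.18 (adjusted p = 0.28 from edgeR). Rsph3a shares 298 exon bases with an antisense gene and Rsph3b 90, while the exons of Rsph1, Rsph9 and Rsph14 share none with the genes they overlap. The deposited table starts Dnajb13 at base 100503011, against 100501716 in GENCODE, so its annotation of this gene was not that of GENCODE. The counting is not stated to use strand. Reads of bases shared in the annotation used for counting therefore cannot be assigned.

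Markers of the cells of the testis differed between the labels too. All 9 elongating spermatid markers were called higher (median log2 fold change 2.69, summed level 1163 to 1965 CPM against 289.9 to 585 CPM). Prm1 and Prm2 were low in the libraries labelled Tmem232+/+, at 1.63 to 7.54 and 2.66 to 12.5 CPM. Under Tmem232-/- they had 44.3 to 132 and 67.9 to 196 CPM. Smcp had 87.4 to 198 CPM under Tmem232+/+ and 260 to 414 CPM under Tmem232-/-. The reason for the low levels under Tmem232+/+ was not tested. Of 6 round spermatid markers, 4 were called higher (median 1.12, 874 to 997 CPM against 641 to 752 CPM). None of 6 spermatocyte markers was called (median -0.10, 1710 to 2248 CPM against 2021 to 2202 CPM), nor any of 5 Sertoli cell markers (median -0.14) or 5 Leydig cell markers (median 0.37), and 1 of 6 spermatogonial markers was lower (Stra8). For multiciliated epithelium, which also builds radial spokes, Tmem212, Cdhr3 and Ccdc153 stayed under 1 CPM in each library, and of 4 markers with a row only Muc4 passed the filter (1.09, called higher). Of 4 epididymal markers with a row, Crisp1 was uneven. It had 27.0 and 9.94 CPM in replicates 1 and 3 labelled Tmem232+/+, 5.52 CPM in replicate 1 labelled Tmem232-/- and under 1 CPM elsewhere. Adam7 was highest in the same libraries, at 4.49, 0.823 and 0.666 CPM in that order. Lcn5 was near 0, and above 0 only in Tmem232+/+ replicates 1 and 3 (0.187 and 0.127 CPM). Cst11 had 0.123 to 0.532 CPM over all libraries and was not raised in Tmem232+/+ replicate 1 (0.249 CPM). Of the 7 tested radial spoke proteins, those other than Dnajb13 were not called, while 4 of the 11 other radial spoke genes were called higher. The part of the marked cell types in the rise of Dnajb13 or of those genes was not tested.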

How the data were processed

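Whole testis RNA of 8 mice was analysed, 4 per label. The authors prepared libraries with a TruSeq RNA kit. Per the labels, the submitters' processing notes name GRCm38.p6, HISAT, Bowtie2, StringTie, featureCounts and DESeq2, with versions and settings not given in the sources used here. The table deposited by the authors gives an estimated count per gene without normalization, and in each library 10.7% to 11.2% of the genes have a count with a decimal part. It also gives FPKM, which the authors scaled by transcript length and library. The deposited log2 fold changes, p-values and q-values of the authors' comparison and their group means were not used.

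Counts were rounded and tested in R 4.3.3 with edgeR 4.0.16 (default filter on low counts, TMM, quasi-likelihood test without covariates, Benjamini-Hochberg over 15787 genes), checked on simulated data. Calls are at an adjusted p under 0.05, and adjusted p-values without another name come from this test. Single values were compared by exact two-sided permutation over 70 arrangements of the libraries, in Python 3.11.15 with scipy 1.17.1, with log2 CPM at a prior count of 2. P-values measure the spread between these mice.

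Alternatives were DESeq2 1.42.0, its size factors, library size alone, leaving out the 10 most abundant genes, no filter, at least 10 counts in every library, limma-voom (limma 3.58.1), log2 of FPKM plus 1 or plus 0.1, a replicate block, a 2-fold rule and each library left out. The test of log2 CPM of Rsph4a was added after the data were seen. Windows, exons and positions were read from GENCODE vM21 and RefSeq tables of GRCm38. The members and lists were chosen with earlier results of these data known. The rule for named genes took the members, all other radial spoke genes, Tmem232, the highest and lowest gene of each neighbouring list and the 5 nearest profiles. Cell type markers, overlapping genes and the further calls of the neighbouring lists are named besides. Rsph10b was not analysed here.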

Additional observations from a re-analysis of the deposited data

Results flagged for a closer look

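Among 40 groups of 4 libraries, for which chance gives about 2 such cases, 3 had a library far from the rest by Dixon's test. Replicate 2 labelled Tmem232+/+ had 1.27 CPM of Rsph4a, where the other libraries of its label had 0.491 to 0.507 CPM. Replicate 4 labelled Tmem232-/- had 149 CPM of Wdr66 (Cfap251), where the others of its label had 167.8 to 168.8 CPM. Replicate 3 labelled Tmem232+/+ had 66.4 CPM of Dydc1, where the others of its label had 45.8 to 48.8 CPM.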

How the results depend on the processing

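Dnajb13 kept its direction and its call in all 18 alternative settings at an adjusted p under 0.05, and 0 radial spoke proteins were called under the 2-fold rule. No setting called any other radial spoke protein, and no setting moved the median of all genes by more than 0.1. The central pair count was 4 with DESeq2 or without the filter and 1 with FPKM plus 0.1 or the replicate block, and its median was 0.078 with FPKM plus 1 and 0.084 with FPKM plus 0.1. The nexin-dynein count was 1 with the replicate block. Among all genes, the lower calls were 131 with DESeq2 size factors, 415 with library size alone, 71 without the filter, 458 with FPKM plus 1 and 28 with the replicate block. Without the filter, Lrrc23 (0.0039) and Dydc1 (0.0006) changed sign. The cause of these moves was not tested.

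The replicate numbers are not stated to pair the mice. Correlations of same-numbered deviations were -0.06, 0.07, -0.33 and -0.11, and those of differently numbered libraries ran from -0.32 to 0.39. So few correlations cannot settle whether mice were paired. With a replicate block, the log2 fold change of Tmem232 was 0.26 (adjusted p = 0.11 from edgeR), a call also lost without Tmem232-/- replicate 1 or 2 or Tmem232+/+ replicate 2 or 4 (0.086 to 0.089), and Maats1 was not called (0.25, adjusted p = 0.12 from edgeR).

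With each library left out, the ranges of calls were 2 to 5 for the other radial spoke genes, 1 to 3 for the nexin-dynein list, 1 to 5 for the central pair and 37 (without Tmem232+/+ replicate 1) to 356 (without Tmem232-/- replicate 4) for lower genes overall. The central pair median ranged from 0.080 to 0.27. Log2 fold changes ranged from -0.099 to 0.055 for Rsph6a, -0.038 to 0.19 for Rsph9, 0.21 to 0.32 for Tmem232, -0.028 to 0.24 for Ropn1l, -0.085 to 0.049 for Lrrc23, -0.064 to 0.030 for Wdr66 and -0.098 to 0.13 for Dydc1. The difference of Rsph6a minus Rsph4a ranged from -0.43 to 0.063 and that of Rsph4a alone from -0.053 to 0.34. Depth limits Rsph4a, at 8 to 21 counts a library, and Dydc2, at 15 to 21 counts in the Tmem232+/+ libraries.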
